A study of Mus musculus with 6 samples.

Results

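A set of 10 genes of the NF-κB system was followed in sorted mouse embryonic stem cells: the subunits Nfkb1, Nfkb2, Rela and Relb, the inhibitors Nfkbia, Nfkbib, Nfkbid and Nfkbie, and the feedback targets Tnfaip3 and Birc3. They were taken by name, and all 10 had a row among the 17110 genes of the authors' deposited table. Both groups of the study come from the line labelled TG2A with a fluorescent protein under MERVL, an endogenous retrovirus that is transcribed in 2-cell embryos and in few cultured stem cells, and both grew with 15% fetal serum and with leukemia inhibitory factor at 25 ng/mL. One group was sorted as DsRed2-positive and the other as DsRed2-negative, with 3 samples each, collected on different dates per the labels. The labels do not say whether the line is a single clone.

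NF-κB proteins are dimers of Rel-family subunits that are held in the cytoplasm by IκB inhibitors. Signals from cytokine and pattern receptors activate the IκB kinase complex, which marks the inhibitors for destruction, and a slower route matures the p100 product of Nfkb2 into p52. The freed dimers switch on genes with κB sites, among them their own inhibitors, so that the response ends itself. In pluripotent mouse cells NF-κB activity is known to be low and to increase on differentiation.

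Every value below comes from 1 comparison that the authors ran and deposited, which gives a single log2 fold change for each gene and nothing for single libraries. The authors' deposited table does not name its groups or their order. That it compares the sorted groups is taken from the labels, and a negative or positive value is given as deposited, without a statement of which sorted group is higher. Mean normalized counts per the authors' deposited table ran from 5.58 to 587461, and depth per library is not analysed here. Here a gene counts as called where its adjusted p-value is below 0.05, whatever its fold change, and by this rule, applied to the authors' deposited table, 30.5% of all genes were called (15.9% negative and 14.6% positive). Counts of negative or positive genes below are of genes called by this rule. The authors' own calls in the authors' deposited table also ask for an absolute log2 fold change over 0.5, which 21.5% of all genes met (12.1% down and 9.4% up), and they are given beside the counts where they differ.

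Nfkb2 and Tnfaip3 were negative and Nfkbid was positive, while the other 7 genes were not called. That is 2 negative and 1 positive of 10, or 30% by the adjusted p-values of the authors' deposited table, beside 30.5% of all genes. The authors' own calls in the authors' deposited table mark the same 3 genes, beside 21.5% of all genes. The median log2 fold change of the 10 genes was -0.016 per the authors' deposited table, against 0.0097 over all genes. A count of 3 in 10 is not read as a result about the set, and the values described below are those of single genes. In such bulk samples, fewer cells of a type and less RNA per cell cannot be told apart.

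**Figure D1:**
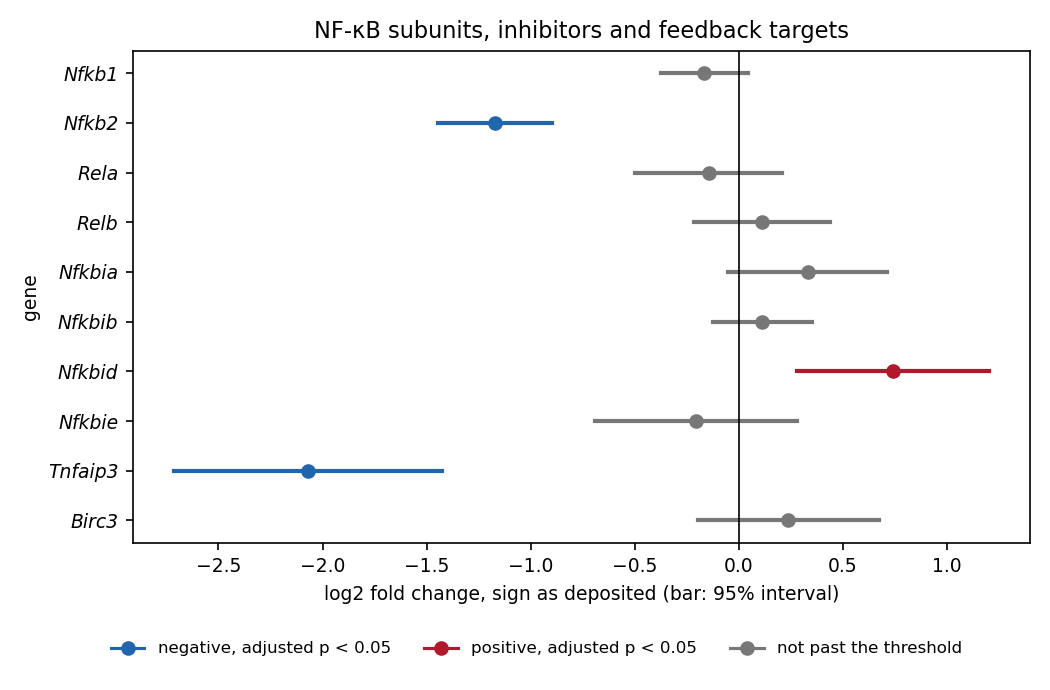
Log2 fold change of each gene (x axis, sign as deposited) with its 95% interval as a bar, 1 gene per line. Nfkb2 at -1.17 and Tnfaip3 at -2.07 lie left of 0 with their intervals, Nfkbid at 0.74 lies right of 0, and the intervals of the other 7 genes cross 0.

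The sequences around the gene starts are shown first, because feedback in this system runs through κB sites near the starts of its own genes. RefSeq windows (GRCm38.p6) from 250 bases before to 50 bases after each annotated start were matched by symbol for 8 of the 10 genes, and Nfkb1 and Relb had no entry. The κB consensus, a pattern of 10 bases, was searched on both strands, and overlapping matches were counted as 1 site. It was found in 5 of the 8 genes (62.5%): Nfkb2, Nfkbia, Nfkbid, Nfkbie and Tnfaip3. Among all 27025 genes with a window, 5.14% held a match, and among the 11507 genes that also have a row in the authors' deposited table it was 6.45%. Feedback genes of NF-κB were part of the choice of the 10, and some have several windows. The higher share is thus a description and was not tested. The 3 called genes all held a match, as did 2 of the 5 uncalled genes with a window. A match in any window was counted, and the called genes have 2 or 3 windows each, the uncalled genes 1 each. More sequence was thus searched for the called genes, so nothing is read from this difference. Rela, Nfkbib and Birc3 held none. Matches are described here as letters only, and binding was not measured.

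Each site is printed 5′ to 3′ on the gene's strand with flanks, 30 bases in all, and capitals mark the bases that match the κB consensus on either strand. Nfkb2 is shown with 4 separate sites at its 3 annotated starts, and the last of them lies in the windows of both start 2 and start 3.
Nfkb2, start 1, chr19:46304689-46304718, plus strand: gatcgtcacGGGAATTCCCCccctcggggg
Nfkb2, start 1, chr19:46304716-46304745, plus strand: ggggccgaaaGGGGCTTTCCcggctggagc
Nfkb2, start 2, chr19:46305449-46305478, plus strand: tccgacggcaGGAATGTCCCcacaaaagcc
Nfkb2, starts 2 and 3, chr19:46305695-46305724, plus strand: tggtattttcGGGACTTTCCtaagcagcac
Tnfaip3, start 1, chr10:19015516-19015545, minus strand: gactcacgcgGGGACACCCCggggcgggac
Tnfaip3, start 1, chr10:19015403-19015432, minus strand: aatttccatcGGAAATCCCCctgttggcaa
Nfkbid, start 2, chr7:30422170-30422199, plus strand: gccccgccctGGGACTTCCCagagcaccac
Nfkbid, start 2, chr7:30422215-30422244, plus strand: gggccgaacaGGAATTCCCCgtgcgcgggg
Nfkbia, chr12:55492657-55492686, minus strand: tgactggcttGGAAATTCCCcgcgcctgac
Nfkbie, chr17:45555584-45555613, plus strand: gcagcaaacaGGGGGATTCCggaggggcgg

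Sites close to a start were seen in Nfkb2, Tnfaip3 and Nfkbia. With the base before the start counted as -1, the nearest sites covered bases -11 to -2 in Nfkb2, -12 to -3 in Tnfaip3 and -29 to -20 in Nfkbia. A stricter pattern of 3 G, any 2 bases, 3 T and 2 C, in this order on either strand, was present in these 3 genes and in 1.89% of all genes with a window. Nfkb2 and Tnfaip3 were called negative and Nfkbia was not called, so genes with like letters next to their starts had different values. By the GENCODE M21 annotation of the same build, both sites at start 1 of Nfkb2 are exonic in a longer transcript. Of the sites at its later starts, 1 is intronic and 1 exonic. The Tnfaip3 and Nfkbid sites are intronic in longer transcripts, and the Nfkbia and Nfkbie sites lie outside all protein-coding transcripts of their genes. The authors' notes name GRCm39, so these positions are the reference's and not those of the deposited data.

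The 250 bases before the Nfkbia start (chr12:55492648-55492897, minus strand) and before start 2 of Nfkbid (chr7:30422156-30422405, plus strand) are given whole, as 2 examples of stretches that hold a match and overlap no annotated protein-coding exon. Nfkbid was called positive, and Nfkbia was not called.
Nfkbia: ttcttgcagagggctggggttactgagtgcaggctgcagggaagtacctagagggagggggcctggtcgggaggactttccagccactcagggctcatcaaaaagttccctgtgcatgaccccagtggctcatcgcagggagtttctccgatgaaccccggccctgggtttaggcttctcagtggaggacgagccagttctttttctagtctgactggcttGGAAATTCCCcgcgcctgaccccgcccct
Nfkbid: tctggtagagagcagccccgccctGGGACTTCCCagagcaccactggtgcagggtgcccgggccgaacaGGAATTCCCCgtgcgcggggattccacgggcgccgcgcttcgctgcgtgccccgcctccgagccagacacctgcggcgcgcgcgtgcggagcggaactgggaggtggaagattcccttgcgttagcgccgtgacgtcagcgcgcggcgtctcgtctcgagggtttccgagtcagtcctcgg
Nfkbia has its 1 match near the start, whereas Nfkbid has both of its matches far from the start, at bases -226 to -217 and -181 to -172.

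**Figure D2:**
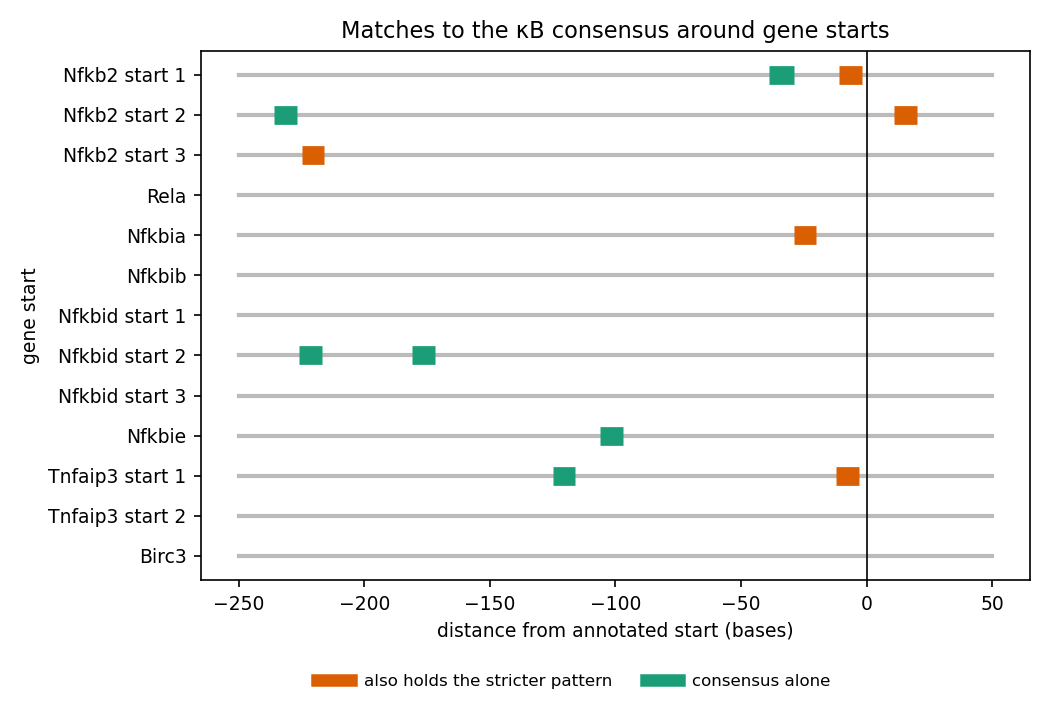
Matches to the κB consensus (coloured blocks) by distance in bases from each annotated start (x axis) in the 13 windows of the 8 genes, with grey lines for the windows. Blocks that also hold the stricter pattern lie close to a start in Nfkb2, Tnfaip3 and Nfkbia, with 1 more at -225 to -216 from start 3 of Nfkb2, and the windows of Rela, Nfkbib and Birc3 are empty.

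Among the 11507 genes with a window and a row, the shares called differed slightly between genes with and without a match. A match in any window was counted here too. Genes with more annotated starts thus had more sequence searched, and nothing is read from this difference. Of 742 genes with a match and a row in the authors' deposited table, 169 were negative and 101 positive (22.8% and 13.6%). Of the 10765 genes whose windows held no match, 17.3% were negative and 15.2% positive per the authors' deposited table. The median log2 fold change was -0.060 with a match and 0.0019 without, a description of the authors' deposited table to which no test was applied. With the stricter pattern the shares were 20.5% negative and 15.6% positive of 224 genes per the authors' deposited table.

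Among the subunits, Nfkb2, whose p100 product is both the precursor of p52 and an inhibitor of Relb dimers, was the one called gene. It had a mean normalized count of 609.1 and a log2 fold change of -1.17 ± 0.14 (SE) per the authors' deposited table, adjusted p = 2.09e-15. That is a 2.25-fold difference with a 95% interval of 1.86 to 2.73, and 7.95% of all genes in the authors' deposited table had a lower value. Nfkb2, like Tnfaip3, kept direction and call under all 7 alternatives that were computed. Of these, only the settings that centre all fold changes on a set of genes could change a direction. Both genes had very small adjusted p-values and absolute log2 fold changes over 1. Most of the settings thus could not remove their calls either, and this is no measure of stability.

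The other subunits among the 10 genes had values near 0. Nfkb1, the source of p105 and p50, had the highest mean count of the 10 genes, 1524, and stood at -0.16 ± 0.11 (SE) per the authors' deposited table, adjusted p = 0.252. Centring all fold changes on the ribosomal protein genes moved Nfkb1 from the authors' deposited table to -0.26 and past the threshold (adjusted p = 0.0478). Rela, the transactivating subunit of the classical dimer, had -0.14 per the authors' deposited table with a 95% interval of -0.50 to 0.21. Relb, the partner of p52, had 0.11 per the authors' deposited table with an interval of -0.22 to 0.44. For Rela and Relb, a log2 difference of at least 0.44 and 0.41 would have been needed for a call at their standard errors per the authors' deposited table. Rel, the fifth subunit, is not one of the 10 genes, and it stood at -0.47 ± 0.22 (SE) per the authors' deposited table, adjusted p = 0.0899. Its value after ribosomal centring, -0.56, passed the threshold (adjusted p = 0.034).

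The inhibitors had values of both signs. Nfkbid, which encodes the nuclear inhibitor IκBNS and is itself induced by NF-κB, had a log2 fold change of 0.74 ± 0.24 (SE) per the authors' deposited table, adjusted p = 0.00767. The difference was 1.67-fold with a 95% interval of 1.21 to 2.30, at a mean normalized count of 101.4 per the authors' deposited table. The classical inhibitor Nfkbia, which encodes IκBα, had a mean count of 436.4 and a value of 0.33 ± 0.20 (SE) per the authors' deposited table, adjusted p = 0.205. Its 95% interval, -0.052 to 0.71 per the authors' deposited table, holds no negative difference as large as that of Nfkb2. Nfkbib, which encodes IκBβ, stood at 0.11 with an interval of -0.13 to 0.35 per the authors' deposited table. Nfkbie, which encodes IκBε, had the lowest mean count of the 10 genes, 82.0, and stood at -0.21 with an interval of -0.69 to 0.28 per the authors' deposited table.

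Outside the 10 genes, the inhibitor family has a pair of further nuclear members. Nfkbiz, which encodes IκBζ, had -1.64 ± 0.19 (SE) per the authors' deposited table, adjusted p = 3.62e-16, the sign opposite to that of Nfkbid. Bcl3 had 0.18 ± 0.14 (SE) per the authors' deposited table, adjusted p = 0.357. Thus 1 of the 6 genes of this family was called negative and 1 positive by the adjusted p-values of the authors' deposited table. That is 16.7% each, beside 15.9% and 14.6% of all genes in the authors' deposited table. Both called genes encode nuclear members of the family.

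The feedback targets had different values too. Tnfaip3 encodes A20, a ubiquitin-editing enzyme that shuts off signalling to the IκB kinases. Its log2 fold change of -2.07 ± 0.33 (SE) per the authors' deposited table was the most negative of the 10 (adjusted p = 5.13e-09). This is a 4.20-fold difference with an interval of 2.69 to 6.57, at a mean count of 114.8, and 3.23% of all genes in the authors' deposited table had a lower value. Birc3, which encodes the ubiquitin ligase cIAP2, stood at 0.24 ± 0.22 (SE) per the authors' deposited table, adjusted p = 0.462. The 95% interval of Birc3, -0.20 to 0.68, does not overlap that of Tnfaip3, -2.72 to -1.43, per the authors' deposited table. A test between genes was not made, since the genes share libraries. Birc2, the close homologue of Birc3, had -0.011 ± 0.089 (SE) per the authors' deposited table, adjusted p = 0.945. Reads shared by Birc2 and Birc3 could have been divided between them in the authors' counting.

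The genes with the lowest mean counts had the largest standard errors, but gene by gene the order did not follow the counts. Tnfaip3, at a mean count of 114.8, had a larger standard error than Nfkbie at 82.0 (0.33 and 0.25 per the authors' deposited table). For the 4 genes with the lowest mean counts (Nfkbie, Nfkbid, Tnfaip3 and Birc3) the standard errors lay between 0.22 and 0.33 per the authors' deposited table, and for the other 6 between 0.11 and 0.20. Of the 1128 genes with mean counts in the range of those 4 genes, 40.8% were called by the adjusted p-values of the authors' deposited table, against 2 of the 4. Of the 4189 genes in the range of the other 6, 34.6% were called by the adjusted p-values of the authors' deposited table, against 1 of the 6.

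Per kilobase of the longest protein-coding transcript in GENCODE M21, the level was highest for Nfkbib, with a mean normalized count of 425.0 per kb from the authors' deposited table. Nfkb1 followed at 370.2, Nfkbia at 276.6, Rela at 237.4, Relb at 171.0 and Nfkb2 at 158.4 per kb by the authors' deposited table. Lower levels were found for Birc3 at 52.0, Nfkbid at 49.7, Nfkbie at 33.7 and Tnfaip3 at 26.0 per kb by the authors' deposited table. The 10 genes thus fell into 6 with levels of at least 158.4 and 4 with at most 52.0 per kb. Of the latter 2 were called, beside 40.8% of all genes in their range of mean counts. Of the 6 it was 1, beside 34.6%, and nothing is read from these counts. These are the authors' means over libraries, so the order of neighbours has no error here.

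**Figure D3:**
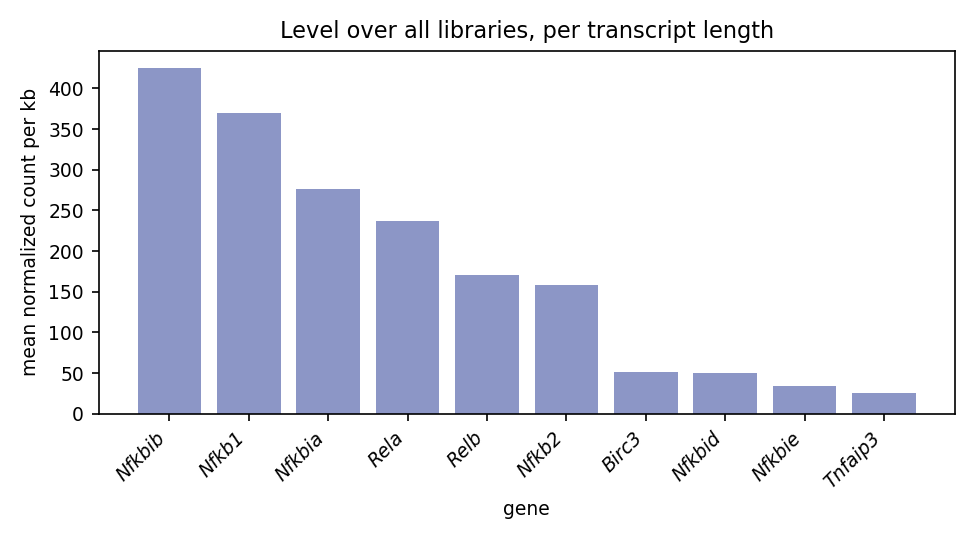
Mean normalized count over all libraries per kilobase of transcript (y axis) for each of the 10 genes (x axis), from the authors' means, with no error available. The subunits, Nfkbia and Nfkbib stand at 158.4 or more, and Birc3, Nfkbid, Nfkbie and Tnfaip3 at 52.0 or less.

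Other genes of the pathway were counted by role, from lists written from general knowledge but with earlier results of these data known. The shares below are thus a description of these lists. Leaving out the 10 genes and counting each gene once, 102 of 137 listed genes had a row, and the other 35 were not analysed here. By the adjusted p-values of the authors' deposited table, 39 of the 102 were negative and 8 positive (38.2% and 7.84%), beside 15.9% and 14.6% of all genes. The authors' own calls in the authors' deposited table were 32 down and 4 up of the 102, beside 12.1% and 9.4% of all genes. Their median log2 fold change was -0.26 per the authors' deposited table, against 0.0097 over all genes. Centring on the ribosomal protein genes gave 46 negative and 7 positive of these genes. The same centring moved the positive share of all calls from 47.8% per the authors' deposited table to 34.7%.

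Few ligands had a row. The ligands Ltb, which signals through the lymphotoxin β receptor to the slower NF-κB route, and Il33, a nuclear alarmin, stood at -3.93 and -4.69 per the authors' deposited table, their standard errors being 0.36 and 0.44 (adjusted p of 1.85e-25 and 2.58e-24). Tnfsf12, which encodes TWEAK, was positive at 0.96 ± 0.37 (SE) per the authors' deposited table, adjusted p = 0.0341, a call lost after ribosomal centring (adjusted p = 0.0592). Tnfsf9 and Tnfsf11, with -0.47 and -0.40 per the authors' deposited table, were not called (adjusted p of 0.365 and 0.372). The other 9 listed ligands, Tnf among them, were not analysed here. Of 17 receptors with a row in the authors' deposited table, 5 were negative and 0 positive by the authors' DESeq2 values (0 positive also without adjustment, at p under 0.05). The 29.4% called, beside 30.5% of all genes, were thus all negative. By direction, 15.9% of all genes were negative and 14.6% positive per the authors' deposited table. The median of the receptors was -0.58. The 5 negative receptors included the TWEAK receptor Tnfrsf12a at -0.97, the double-stranded RNA receptor Tlr3 at -2.34 and the interleukin co-receptor Il1rap at -1.11 per the authors' deposited table (adjusted p of 5.05e-05, 0.000329 and 0.00217). With a mean count of at least 50 the negative receptors dropped to 3. Tlr3, at a mean count of 27.4 and with a standard error of 0.57, was not among those. Tnfrsf1a, the main receptor for TNF, had 0.048 ± 0.30 (SE) per the authors' deposited table, which turned to -0.045 after ribosomal centring.

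Signal transducers had medians closer to 0. Of 26 adaptors and upstream kinases, 8 were negative and 2 positive by the adjusted p-values of the authors' deposited table, with a median of -0.12. That is 30.8% and 7.69%, beside 15.9% and 14.6% of all genes in the authors' deposited table. The 8 dropped to 5 at an adjusted p-value under 0.01, and the authors' own calls in the authors' deposited table were 4 down and 2 up. Negative were the scaffold Card10 at -2.36, its partner Bcl10 at -0.42 and the ubiquitin ligase Traf6 at -0.45 per the authors' deposited table (adjusted p of 6.64e-11, 0.000763 and 0.000924). Positive were Irak3, an inhibitor of Toll-like receptor signalling, at 1.11 and the kinase-like adaptor Irak2 at 0.92 per the authors' deposited table (adjusted p of 1.52e-09 and 3.15e-06). Map3k14, the kinase that starts the maturation of p100, had 0.29 ± 0.29 (SE) per the authors' deposited table, adjusted p = 0.505. The IκB kinase subunits Chuk, Ikbkb and Ikbkg stood at -0.021, 0.16 and -0.12 per the authors' deposited table (standard errors 0.073, 0.10 and 0.12), all uncalled (adjusted p of 0.875, 0.257 and 0.481). In the list of IκB kinases and the linear ubiquitin ligase, 2 of 10 genes passed by the adjusted p-values of the authors' deposited table, the adaptors Tank at -0.87 and Azi2 at -0.43 (adjusted p of 1.34e-07 and 0.000188). Both are negative, which is 20.0% of this list beside 15.9% of all genes in the authors' deposited table. Azi2 lies under the fold limit, so the authors' own calls in the authors' deposited table hold Tank alone.

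Negative regulators were counted without Tnfaip3. Here 4 of 14 genes with a row were negative and 1 positive by the adjusted p-values of the authors' deposited table, with a median of -0.089. That is 28.6% and 7.14%, beside 15.9% and 14.6% of all genes in the authors' deposited table. The authors' own calls in the authors' deposited table were 2 down and 0 up. Rnf11, a ubiquitin ligase of the A20 complex, stood at -0.73 and the deubiquitinase Otud7b at -0.34 per the authors' deposited table (adjusted p of 1.5e-08 and 0.00867). The positive gene was N4bp1, an inhibitor of NF-κB signalling, at 0.34 per the authors' deposited table (adjusted p = 0.00103).

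Inflammatory targets had the widest range of the 9 lists, from -6.87 to 0.97 per the authors' deposited table. Without Birc3, 8 of 11 inflammatory targets with a row were negative and 2 positive by the adjusted p-values of the authors' deposited table, with a median of -1.75. That is 72.7% and 18.2%, beside 15.9% and 14.6% of all genes in the authors' deposited table. The authors' own calls in the authors' deposited table were 8 down and 1 up, since Icam1 lies under the fold limit. The growth factor Csf1 stood at -5.54, the chemokine Cxcl16 at -1.65 and the chemokine Cxcl10 at -3.12 per the authors' deposited table, their standard errors being 0.61, 0.28 and 0.59 (adjusted p of 4.04e-18, 7.89e-08 and 1.78e-06). Sod2, the mitochondrial superoxide dismutase, went the other way at 0.97 ± 0.10 (SE) per the authors' deposited table, adjusted p = 1.13e-20. The adhesion molecule Icam1 was positive at 0.43 ± 0.10 (SE) per the authors' deposited table, adjusted p = 0.000282. Another 13 listed inflammatory targets were not analysed here. With a mean count of at least 50, the negative inflammatory targets dropped from 8 to 4.

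Of 17 survival and stress targets, 10 were negative and 2 positive by the adjusted p-values of the authors' deposited table, with a median of -0.81. That is 58.8% and 11.8%, beside 15.9% and 14.6% of all genes in the authors' deposited table. The authors' own calls in the authors' deposited table were 10 down and 0 up, since both positive genes lie under the fold limit. The stress gene Gadd45b and the survival gene Bcl2 stood at -1.53 and -3.27 per the authors' deposited table, their standard errors being 0.17 and 0.39 (adjusted p of 5.16e-17 and 4.46e-15). Nfkbiz, listed here as well, had a smaller p-value than Bcl2. The ferritin heavy chain gene Fth1 and the kinase gene Plk3 were positive at 0.42 and 0.39 per the authors' deposited table (adjusted p of 0.00142 and 0.00713). Fth1 is known to have near-copies in the genome, and reads could have been divided among them. Many of these targets are known to respond to other factors too.

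**Figure D4:**
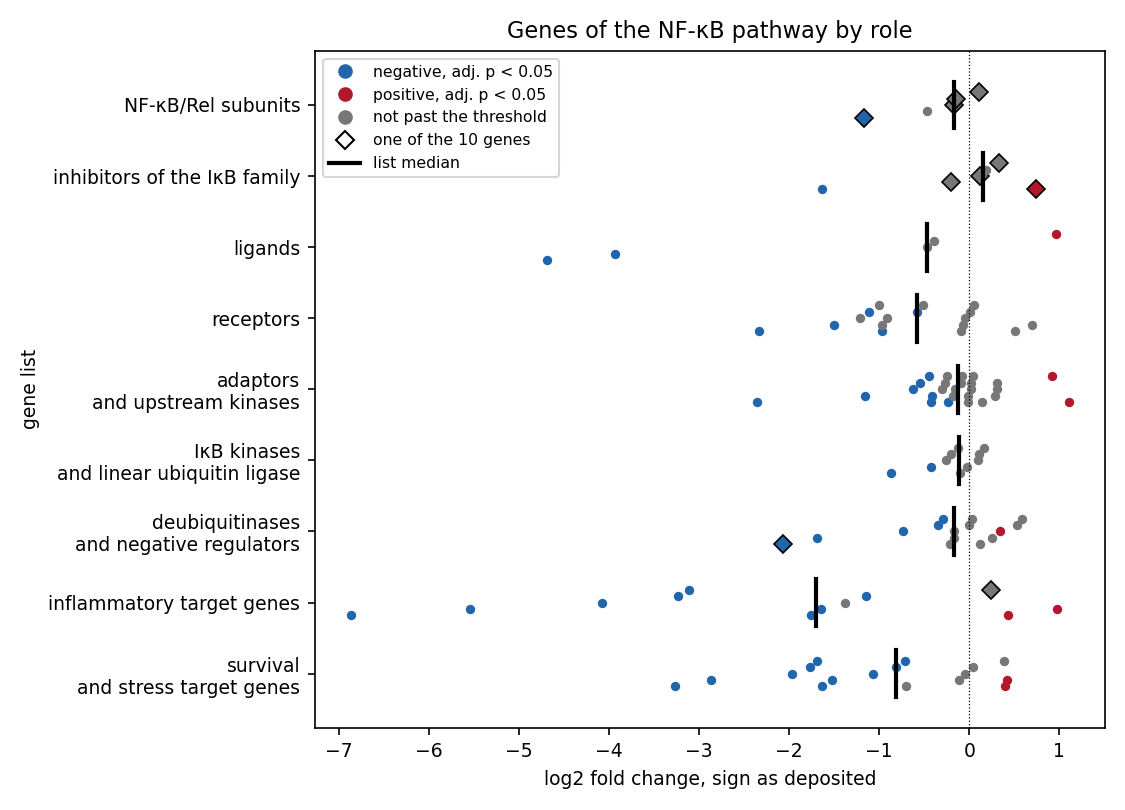
Log2 fold change (x axis, sign as deposited) of every listed gene with a row, by role (y axis), with list medians as black bars and the 10 genes as diamonds. The inflammatory and the survival and stress targets spread to the left, with medians of -1.70 and -0.81. Among the subunits and inhibitors, Nfkb2, Nfkbid and Nfkbiz are called, and the uncalled ones lie between -0.47 (Rel) and 0.33 (Nfkbia).

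Markers of cell types were read in the same comparison, where 15.9% of all genes were negative and 14.6% positive per the authors' deposited table. Of 14 pluripotency markers 13 had a row, with mean counts from 1260 to 38163 per the authors' deposited table, and 9 were positive and 0 negative (0 negative also at an unadjusted p-value under 0.05, by the authors' DESeq2 values). The authors' own calls in the authors' deposited table hold 7 of these 9. Trophectoderm markers were negative in 7 of 10 genes with a median of -2.95, and fibroblast markers in 7 of 13 with a median of -1.67 per the authors' deposited table, where 1 fibroblast marker was positive. Mean counts ran from 13.7 to 1903 in the trophectoderm list and from 7.15 to 25847 in the fibroblast list. The positive fibroblast marker, Fn1 at 0.58, had the highest of these counts. By their medians, the trophectoderm and fibroblast lists had the sign of Nfkb2, Tnfaip3 and most called targets, and their part in those values was not tested. Of 12 macrophage and blood cell markers, 3 had a row in the authors' deposited table, Laptm5, Cd68 and Itgam, at 1.34, 0.91 and 1.84 (adjusted p of 1.18e-14, 3.01e-05 and 0.00469). Of 7 primitive endoderm markers with a row in the authors' deposited table, 2 were negative and 1 positive. The 2-cell marker Calcoco2 was positive at 3.10 per the authors' deposited table (adjusted p = 3.28e-107), and 10 of the 12 listed 2-cell markers were not analysed here. Nelfa, the other 2-cell marker with a row, stood at 0.22 ± 0.11 (SE) per the authors' deposited table and was not called (adjusted p = 0.0954).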

How the data were processed

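RNA captured with oligo(dT) from sorted cells was sequenced as paired ends of 150 bases, per the labels. The submitters' processing notes name FastQC 0.12.1, Trimmomatic 0.39, STAR 2.7.11b, RSEM 1.3.3 and DESeq2 1.45.3 and the build GRCm39. The annotation, the model and the reference group are not given in the sources used here. Per the file headers, the deposited table holds a mean normalized count (a pooled signal), a log2 fold change with its standard error, a Wald statistic (a score), a p-value and an adjusted p-value, all by the authors. The statistic equalled the ratio of fold change to standard error within 5.77e-07. The authors' calls equalled an adjusted p-value under 0.05 with an absolute log2 fold change over 0.5, with 0 exceptions.

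A count table with 6 columns was not used, because the column names match no sample label. So no values per library, no depth and no spread between replicates are given.

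Intervals are 95% normal intervals from the deposited standard errors (Python 3.11.15, scipy 1.17.1). Centred values were retested as Wald tests with Benjamini-Hochberg adjustment, and the steps were tested on simulated data. The 10 genes and all lists were chosen with earlier results of these data known. Named outside the 10 were all genes of lists with at most 8 rows, otherwise the called genes with the 3 smallest p-values per direction (the 10 genes counted, so Tnfaip3 takes 1 place among negative regulators), and 10 preset genes, of which Tnf was not analysed here. Marker genes, Ccl20 and Fth1's copies were named after their values were seen. Protein sequences were planned and not used here.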

Additional observations from a re-analysis of the deposited data

How the results depend on the processing

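Alternatives were a stricter adjusted p-value, a recomputed adjustment, fold limits of 0.5 and 1, centring on all genes or on 76 ribosomal protein genes, and a mean count of at least 50. Over these 7, the 10 genes gave 68 values with the same direction and call. Only the centrings change a fold change, so under the other settings no direction could change. A stricter limit cannot add a call, and the lowest mean count of the 10 genes, 82.0, is above 50. Most of the 68 values were thus fixed in advance and are no measure of stability. The exceptions were Nfkb1, called at -0.26 after ribosomal centring, and Nfkbid, whose 0.74 cannot pass a fold limit of 1 and left 0 positive genes there. Fold limits also cut counts by construction: at 0.5 to 1609 positive of all genes and 4 positive pathway genes, and at 1 to 1315 negative and 957 positive of all genes, and 24 negative and 1 positive pathway genes. Among the other named genes 222 values were unchanged, 24 weaker, 1 stronger and 1 reversed (Tnfrsf1a, -0.045 after ribosomal centring, uncalled on both sides). Counts in single lists moved by over 1.5 times in part of the settings, for adaptors from 8 negative to 2 at a fold limit of 1. The stricter motif was found in 3 genes in place of 5. The edgeR fits, with or without each replicate, were not run. No paired analysis was possible because no column of counts could be matched to a replicate, and the deposited comparison holds none per sample.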
